A study of Mus musculus with 23 samples.

Results

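Thymic epithelial cells (TECs) carrying a constitutively active Notch receptor fragment were set directly against TECs lacking the nuclear mediator of canonical Notch signalling, both sorted as PLET1+ cells at E14.5. The comparison takes 8 of the 23 RNA-seq libraries, chosen by their titles alone: 5 of the Notch gain-of-function group, here NICD, and 3 of the Rbpj loss-of-function group, here cKO. NICD embryos were Foxn1Cre Rosa26FL-STOP-FL-NICD-IRES-EGFP, in which Cre removes a STOP cassette at Rosa26 and releases the Notch intracellular domain together with EGFP. The cKO embryos were Foxn1Cre RbpjFL/FL, so that both groups carry Foxn1Cre, which acts only in cells that transcribe Foxn1 and only from the time they do so. The 3 E14.5 PLET1+ control libraries, labelled wild type, are given as a reference for some of the genes, and all embryos are labelled C57BL/6. Each library was made with Smart-seq2 from 100 sorted cells. By the study's methods, the NICD embryos were sorted in Lausanne, and the cKO embryos and their littermate controls in Edinburgh. The 5 NICD embryos shared 1 litter, whereas the E14.5 embryos of the Rbpj cross came from 2 litters. The NICD libraries form sequencing batch 5 alone and the cKO and control libraries batches 3 and 4, so that genotype, litter, sorting site and batch cannot be told apart in any difference given here.

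Notch receptors are cleaved when they bind a Delta-like or Jagged ligand on a neighbouring cell, and the released intracellular domain enters the nucleus. There it joins the DNA-binding protein RBPJ and a Mastermind coactivator, and the complex switches on genes of the Hes and Hey families, which encode repressors. Without the intracellular domain, RBPJ recruits corepressors, so that loss of RBPJ removes both the activating and the repressing role. In the thymus, Notch is best known in developing T cells, for which cortical TECs (cTECs) supply the ligand DLL4 under the control of FOXN1, the transcription factor that directs TEC differentiation. Medullary TECs (mTECs) form the other main lineage and express, among others, keratin 5 and the receptor RANK.

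The NICD libraries held 63587152 to 92699969 counts on genes and the cKO libraries 34875277 to 43473762. Total counts did not overlap between the groups (two-sided exact permutation p = 0.0179, the smallest that 5 against 3 libraries allow, adjusted p = 0.0357 over 4 measures). Mitochondrial genes took 10.4% ± 1.33 (SD, n = 5) in NICD and 6.24% ± 2.58 (SD, n = 3) in cKO of the counts (exact permutation p = 0.0179, adjusted p = 0.0357). Replicate 1 of the cKO stood apart within its group: 9.15% of its counts were mitochondrial, against 4.21% and 5.36% in replicates 2 and 3, and 16229 genes were detected, against 19645 and 19144. Replicate 1 of the controls resembled it in mitochondrial share, at 9.54%. The 6 epithelial genes Epcam, Cdh1, Krt8, Krt18, Foxn1 and Plet1 summed to 5029.5 to 7252 CPM (counts scaled to library size with TMM factors) in NICD and 4952 to 7329 in cKO. The 13 mesenchyme markers summed to 376, 194, 23.4, 487 and 332 CPM in NICD replicates 1 to 5 and 21.6 to 54.2 CPM in cKO, so that 4 of the 5 NICD libraries lay above every cKO library. Of these 13 markers, Pdgfrb and Foxd1 were at 0 in the cKO and Foxd1 in NICD. The 17 thymocyte markers summed to 21.2 to 88.8 CPM in NICD and 21.3 to 28 in cKO, with Rag1 and Cd8a at 0 in both. Endothelial markers summed to at most 27.5 CPM in NICD and 7.91 in cKO, macrophage and dendritic markers to 13.7 and 1.59, parathyroid markers to 10.1 and 7.22, and erythroid markers to 0.948 and 1.54. What part these differences in composition play in the results was not tested.

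Checks of the labels came next. Rbpj, the floxed gene, had 2, 424 and 293 counts in replicates 1 to 3 of the cKO group, whereas the controls had 561, 1114 and 776. As CPM these were 0.0610, 10.4 and 6.95 and 20.4, 20.2 and 18.4. NICD libraries gave 10.9, 20.1, 5.27, 15 and 24.7 CPM, which overlapped the cKO values, and Rbpj was not called between the groups (log2 fold change 1.39 ± 0.96 as SE, edgeR adjusted p = 0.520). Notch1 was at 87, 37.5, 35.5, 42.7 and 30.4 CPM in NICD, above the 0, 6.61 and 7.16 CPM of the cKO and the 18.4, 16.7 and 18.2 CPM of the controls. Its log2 fold change was 3.39 ± 1.16 (edgeR adjusted p = 0.156, unadjusted p = 0.00943), and reads of the transgene cannot be separated from endogenous Notch1 by counts per gene. Plet1, the sorting marker, was measured in every library, at 12.4 to 60.8 CPM in NICD and 10.2 to 28.4 CPM in cKO. Male-specific transcripts were found in NICD replicates 1, 2 and 5 and in cKO replicate 3, so that each group held embryos of both sexes.

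Of 19140 genes tested, 265 differed between NICD and cKO at an adjusted p of at most 0.05 (1.38%, edgeR quasi-likelihood test with Benjamini-Hochberg adjustment). Higher in NICD were 123 of them (0.643%) and lower 142 (0.742%), and at an unadjusted p under 0.05 there were 3143 (16.4%), 1223 higher (6.39%) and 1920 lower (10%). DESeq2 called 7.85% of these genes and limma-voom 5.45%. Libraries of the groups did not overlap for 247 of the 265 called genes and for 9.48% of all genes tested. Lack of overlap among called genes largely follows from the call, since both rest on the same NICD and cKO libraries. In the same fit and against the same 3 control libraries, 131 genes (0.684%) were called for NICD and 0 for cKO, with 395 for cKO at an unadjusted p under 0.05. The count rested on individual libraries: without cKO replicate 2 it was 92, without cKO replicate 3 67 and without NICD replicate 3 174. Scaling to 3 housekeeping genes in place of TMM raised the log2 fold change of the median gene by 0.348 and gave 498 genes higher and 156 lower. Of those housekeeping genes, Hprt and Ywhaz had log2 fold changes of 0.02 and −0.51 and were not called.

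**Figure D1:**
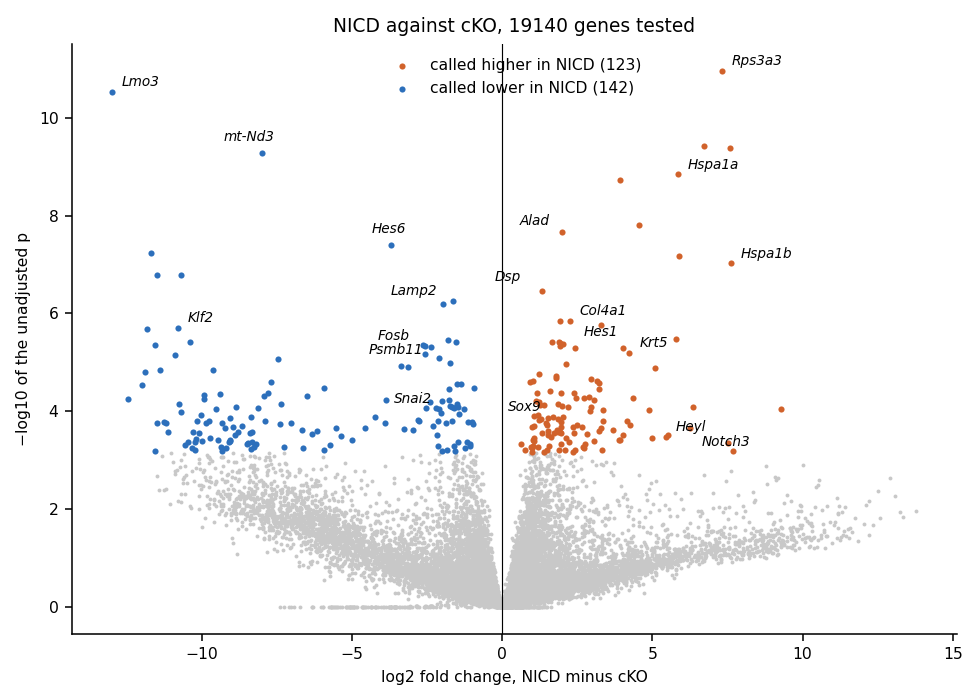
Each point is 1 of the 19140 genes tested, with the log2 fold change of NICD over cKO on the x axis and −log10 of the unadjusted p on the y axis. Orange marks the 123 genes called higher in NICD and blue the 142 called lower, and the genes named include Hes1, Krt5 and Hspa1a on the right and Hes6, Psmb11 and Lmo3 on the left.

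Among the 4 Notch receptors, all 4 had a higher fitted level in NICD and 1 was called, with a median log2 fold change of 3.30 beside 0.05 over all genes tested. That median lies between Notch1 (3.39), whose reads cannot be separated from those of the transgene, and Notch4 (3.21). Notch2 and Notch4 were not called (edgeR adjusted p = 0.664 and 0.580), so only Notch3 bears out a higher receptor level. Notch3, a receptor that is itself switched on by Notch signalling in several tissues (chr17:32120820-32166880, GRCm38, minus strand), was read at 38.2, 30.8, 29.8, 7.8 and 6.29 CPM in NICD replicates 1 to 5 and at 0, 0.418 and 0.498 CPM in the cKO. Its counts were 0, 17 and 21 in the cKO and the NICD libraries lay above all of them. The log2 fold change was 6.24 ± 1.35 (edgeR adjusted p = 0.0255). Controls held 8.84, 9.01 and 8.26 CPM, within the NICD range and above the cKO, and the side-by-side log2 fold changes were 1.36 for NICD over control and −4.88 for cKO over control. The call was lost without cKO replicate 1, 2 or 3 (edgeR adjusted p = 0.0503, 0.110 and 0.112), and the log2 fold change was 5.60 without replicate 1 and 6.91 without replicate 2. Notch2, a receptor of broad expression, ranged from 239.8 to 862 CPM in NICD, while the cKO split into 1390.3 CPM in replicate 1 and 101 and 85.7 CPM in the others. Notch4, a receptor of blood vessels, was at most 10.3 CPM in NICD and 0.640 CPM in cKO, and the groups overlapped.

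Ligand genes gave no calls in edgeR, although limma-voom called 3 lower and DESeq2 2 lower. Of 6 tested, 1 had a higher fitted level in NICD and 5 a lower one, and the median log2 fold change was −2.80. At an unadjusted p under 0.05, 3 were lower and 1 higher. Dll4, through which cTECs signal to T cell progenitors, was at 6.33, 3.04, 1.31, 2.69 and 4.44 CPM in NICD and 6.41, 31.1 and 35.1 CPM in cKO. Every NICD library lay below the cKO, by a narrow margin for cKO replicate 1, and the log2 fold change of −2.71 ± 0.70 had an edgeR adjusted p of 0.0613. Controls were at 19.2, 28.7 and 21.2 CPM. Dll1, another Delta-like ligand, had no count in any of the 5 NICD libraries and 0, 100 and 111 counts in the cKO, a mean at least 40.3-fold lower in NICD when 3 counts per library are taken as the floor, without a call (edgeR adjusted p = 0.0914). Jag2 was lower in NICD without a call (7.8, 1.56, 0.0138, 6.06 and 0.0378 CPM against 6.53, 25.6 and 30.2 CPM, log2 fold change −2.70, edgeR adjusted p = 0.247). Jag1, the Jagged ligand that is itself a Notch-responsive gene in some epithelia, was the ligand with the opposite sign, at 484, 736, 979, 761 and 776 CPM in NICD against 612, 103 and 74.6 CPM in cKO (log2 fold change 1.66, edgeR adjusted p = 0.215). There the cKO replicate 1 reached the NICD range and replicates 2 and 3 did not.

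Genes that process or modulate the pathway gave no calls among 25 tested in edgeR, with a median log2 fold change of 0.07 that became −0.64 under limma-voom, a fit whose median over all genes was −0.40. Limma-voom called none of the 25 and DESeq2 1. That gene, Dtx4, a Deltex ubiquitin ligase (DESeq2 adjusted p = 0.0328), was also the only one to pass an unadjusted p of 0.05 in edgeR, at 1.59, 36.1, 38.8, 4.01 and 35.2 CPM in NICD and 0.183, 2.53 and 3.32 CPM in cKO, with NICD replicate 1 inside the cKO range. Of the 19 genes of the nuclear complex none was called by edgeR and the median was 0.70, with 5 higher and 1 lower at an unadjusted p under 0.05. Limma-voom called none of them and DESeq2 2 higher and 1 lower. Maml3, a Mastermind coactivator, had a log2 fold change of 1.73 ± 0.53 (edgeR adjusted p = 0.118, DESeq2 adjusted p = 0.00441), and the corepressor Tle1 was at 21.7 to 71 CPM in NICD against 17.6 to 20.7 CPM in cKO (DESeq2 adjusted p = 0.0273).

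Of 18 Notch target genes tested, 4 were called higher in NICD (Notch3, Hes1, Heyl and Sox9) and 1 lower (Snai2), and the median log2 fold change was 0.48. Over all genes tested, 0.643% were called higher and 0.742% lower. Hes1, the main Hes repressor downstream of Notch (chr16:30064384-30067796, GRCm38, plus strand), was read at 173, 207, 134, 214 and 108 CPM in NICD and 12.8, 33.2 and 51.1 CPM in cKO. The lowest NICD library was above the highest cKO library, a log2 fold change of 2.44 ± 0.38, or 5.43-fold (edgeR adjusted p = 0.00256), and the call held in 22 of the 23 alternatives. The exception was the fit of only the 8 libraries compared (edgeR adjusted p = 0.0837). Controls, at 39.9, 33.3 and 49.6 CPM, sat with the cKO, and NICD over control gave 2.04 (edgeR adjusted p = 0.0145) where cKO over control gave −0.40 (adjusted p = 1.0). Heyl, a Hey family repressor (chr4:123233556-123249875, plus strand), was at 106, 133, 123, 83.4 and 77.4 CPM in NICD and 0.0305, 4.79 and 2.32 CPM in cKO, with a log2 fold change of 5.45 ± 1.23 (edgeR adjusted p = 0.0319). For Heyl the controls stood apart from both, at 11, 29.8 and 25.9 CPM, below every NICD and above every cKO library. Its call was lost without NICD replicate 2 or 3 (edgeR adjusted p = 0.0504 and 0.0540) and without cKO replicate 1, 2 or 3 (0.0506, 0.0519 and 0.161), and its log2 fold change ran from 4.86 without cKO replicate 1 to 7.11 without cKO replicate 2. Hey1 did not overlap between the groups either, at 319, 306, 339, 288 and 322 CPM against 86.3, 193 and 169 CPM, but missed the threshold (log2 fold change 1.08 ± 0.28, edgeR adjusted p = 0.0613).

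Within the Hes and Hey family as listed, 8 of 12 genes could be tested, 2 were called higher (Hes1 and Heyl) and 1 lower (Hes6). Hey2 ran from 1.62 to 25.2 CPM in NICD and from 0.119 to 2.09 CPM in cKO, with overlap (log2 fold change 4.20 ± 1.54, edgeR adjusted p = 0.179). Bhlhe41, a related repressor, had 96.3, 399.6, 258, 388 and 421 CPM in NICD and 107, 22.1 and 1.83 CPM in cKO, where replicate 1 alone reached the lowest NICD library (edgeR adjusted p = 0.136). Hes5 was read in NICD replicate 1 almost alone, with 48 counts, 1 count in replicate 2 and none in the cKO, and was too low to test.

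RBPJ binds sequences of the type GTGGGAA, and the promoter of Hey2 is shown because it holds that motif at the start itself and once more upstream. The stretch of 260 bases runs from 250 before to 10 after the RefSeq start (chr10:30842774-30843033, GRCm38.p6, minus strand), 5′ to 3′, with GTGGGAA or its reverse complement in capitals.
Hey2: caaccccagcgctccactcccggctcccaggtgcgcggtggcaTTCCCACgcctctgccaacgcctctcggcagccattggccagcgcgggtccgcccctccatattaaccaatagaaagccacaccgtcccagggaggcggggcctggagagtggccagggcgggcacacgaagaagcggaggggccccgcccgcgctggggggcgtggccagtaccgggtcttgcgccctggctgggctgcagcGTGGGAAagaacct
The motif occupied positions −207 to −201 and −4 to 3 relative to the start. In windows from 250 bases before to 50 after a start, GTGGGAA on either strand was present in 6.38% of 32851 mouse windows, 5.81% of the 86 windows of genes called higher in NICD and 3.94% of the 127 windows of genes called lower. Its 6-letter core TGGGAA, which every GTGGGAA contains, was present in 25.6%, 22.1% and 16.5%. GTGGGAA was also present in 6.27% of the windows of genes tested here and TGGGAA in 23.6%. Windows were few for the Notch lists, and GTGGGAA was present in 3 of the 13 found for the Notch target genes and in 3 of the 7 found for the Hes and Hey family. CACGTG and CACGCG, the kinds of site bound by Hes and Hey proteins, were present in 6.3% and 10.2% of the windows of genes called lower, in 12.8% each of those of genes called higher, in 9.33% and 15.7% of those of genes tested, and in 7.15% and 9.27% of all. The table matched 65 of the 123 higher and 95 of the 142 lower genes, and such letters are a description, not a bound site.

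The other called targets were Sox9 and Snai2. Sox9, a transcription factor of progenitors in many epithelia, was at 251, 380.2, 406, 326 and 363 CPM in NICD and 147, 98.6 and 50.8 CPM in cKO, a log2 fold change of 1.87 ± 0.39 (edgeR adjusted p = 0.0214), with controls at 129, 102 and 138 CPM. Snai2, a repressor of epithelial genes, fell to 97.1, 92.6, 50.7, 128 and 169 CPM in NICD from 334, 339 and 341 CPM in cKO, with controls at 303, 263 and 196 CPM (log2 fold change −1.66 ± 0.33, edgeR adjusted p = 0.0155). Both were lost without cKO replicate 2 (edgeR adjusted p = 0.109 for Sox9 and 0.0639 for Snai2) or 3 (0.157 and 0.115). The 13 other targets tested were not called.

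Hes6, a Hes family member that opposes HES1 and marks cells entering neurogenic or endocrine programmes (chr1:91411483-91414038, minus strand), had the smallest p of any gene in the Notch and TEC lists. It was at 63.6, 50.9, 27.3, 52.4 and 84.4 CPM in NICD and 324, 905 and 986 CPM in cKO. Every cKO library was above every NICD library, and the log2 fold change of −3.70 ± 0.40, a 13-fold difference (edgeR adjusted p = 7.49e-05), was called in all 23 alternatives, with adjusted p from 2.93e-22 to 0.0129. Controls held 599, 510.1 and 482 CPM, within the cKO range, and the side-by-side values were −3.26 for NICD over control (edgeR adjusted p = 0.000298) and 0.44 for cKO over control (adjusted p = 1.0). The rest of the proneural and neuroendocrine list was sparse. Of 25 genes 13 could be tested, Hes6 was the only call, and 10 of the 13 had a lower fitted level in NICD (median −3.52, or −2.85 with genes at 0 in a group set to their bound). The median was 1.32, the opposite sign, with the mitochondrial share of each library as a covariate, a fit added after the data were seen. Atoh1 and Gfi1, which act downstream of Notch in secretory and sensory lineages, had no count in NICD and were read, among the cKO, in replicate 2 alone, at 4.42 and 3.54 CPM.

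**Figure D2:**
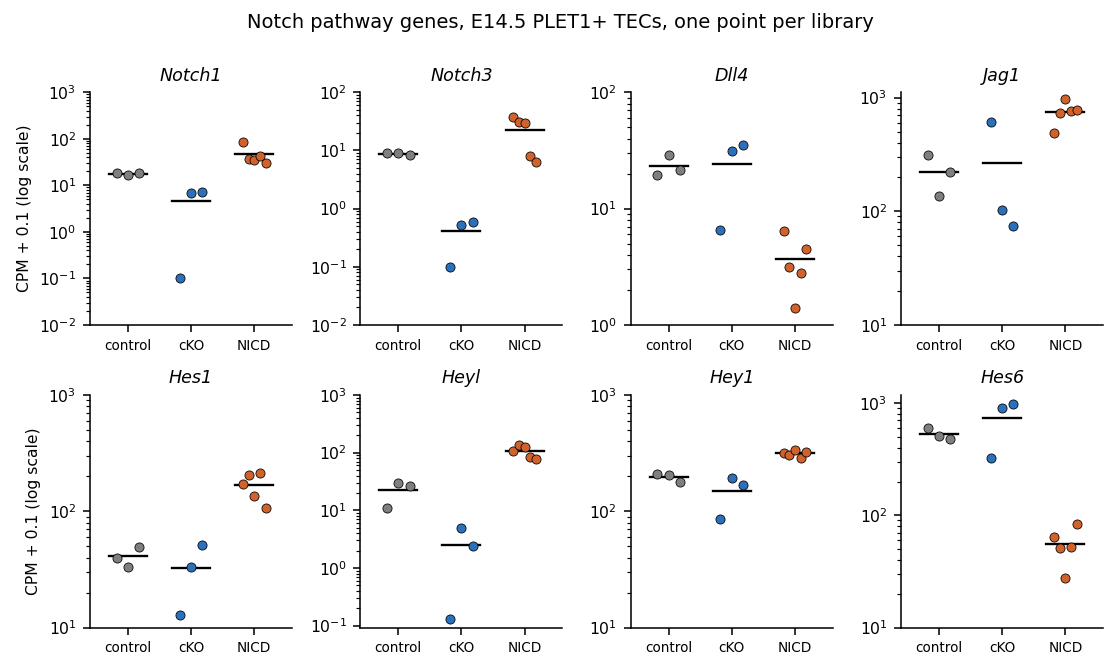
Normalised CPM plus 0.1, on a log axis, of 8 Notch pathway genes in the E14.5 PLET1+ control (grey, n = 3), cKO (blue, n = 3) and NICD (orange, n = 5) libraries, with 1 point per library and a black line at the mean. Notch3, Heyl and Hes1 are higher in every NICD library than in every cKO library, Hes6 and Dll4 are lower, and control replicates of Notch3 and Heyl lie above those of the cKO.

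cTEC and FOXN1-dependent genes gave 1 call in edgeR, Psmb11, and mostly lower fitted levels in NICD than in cKO. Of 21 tested, 1 was called lower and none higher, 16 had a lower fitted level and 11 of them an unadjusted p under 0.05, and the median log2 fold change was −0.75. Over all 19140 genes tested, 9203 had a lower fitted level. Against the controls, the list median was −0.26 for NICD and 0.22 for cKO. Limma-voom and DESeq2 each called 6 of the 21 lower and none higher. Psmb11, the cortex-specific thymoproteasome subunit β5t (chr14:54625310-54629556, plus strand), was at 99.8, 215, 121, 171 and 208 CPM in NICD and 377, 889 and 857 CPM in cKO. No library overlapped, and the log2 fold change was −2.11 ± 0.34, a 4.32-fold difference (edgeR adjusted p = 0.00374). The call was lost in the fit of only the 8 libraries compared (edgeR adjusted p = 0.0612) and with the mitochondrial share as a covariate (0.0814). Controls, at 404, 490.4 and 386 CPM, lay above every NICD library and overlapped the cKO, with −1.40 for NICD over control (edgeR adjusted p = 0.0729) and 0.71 for cKO over control (adjusted p = 1.0). Prss16, the thymus-specific serine protease of cTECs, had 399, 563, 626, 525 and 505 CPM in NICD and 642, 1599.7 and 1578 CPM in cKO, again without overlap but short of the threshold (log2 fold change −1.26 ± 0.31, edgeR adjusted p = 0.0543). Ctsl, encoding cathepsin L, which prepares peptides in cTECs, was at 1041 to 2549.9 CPM against 2953 to 4124 CPM (log2 fold change −0.91, edgeR adjusted p = 0.0914). Ccl25, the chemokine that draws progenitors to the thymus, did not overlap either, at 842 to 2099 CPM against 2101 to 7788 CPM, and its highest cKO value came from replicate 1 (edgeR adjusted p = 0.191).

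Foxn1 itself was at 16.4, 44.7, 30.8, 76.6 and 38.1 CPM in NICD, 12.6, 142 and 121 CPM in cKO and 84.7, 206 and 142 CPM in controls. Replicates 2 and 3 of the cKO were above all NICD libraries and replicate 1 was below them all, so that the groups overlapped (log2 fold change −1.12 ± 0.61, edgeR adjusted p = 0.380). With the mitochondrial share as a covariate, the fitted value of Foxn1 was 0.40, the opposite sign. That share separates replicate 1 from replicates 2 and 3 in the Rbpj cross. It also did not overlap between the groups compared (9.60% to 12.8% in NICD, 4.21% to 9.15% in cKO), so such a fit adjusts part of the contrast itself. In bulk RNA, fewer cells of a type and less RNA of its genes per cell cannot be told apart.

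FOXN1 binds sequences with the core GACGC, and the promoter of Psmb11 is shown because Psmb11 is the called gene of the list (chr14:54625060-54625319, GRCm38.p6, plus strand, 250 bases before to 10 after the RefSeq start, GACGC or its reverse complement in capitals).
Psmb11: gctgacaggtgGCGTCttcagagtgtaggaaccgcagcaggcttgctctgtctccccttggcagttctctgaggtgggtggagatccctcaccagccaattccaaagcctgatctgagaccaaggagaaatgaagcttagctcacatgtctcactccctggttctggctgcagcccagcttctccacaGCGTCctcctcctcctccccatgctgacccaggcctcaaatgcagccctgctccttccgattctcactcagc
Both matches, at positions −239 to −235 and −62 to −58, were on the reverse strand. GACGC was present in 27.2% of all windows, 41.9% of the windows of genes tested here, 43 of the 86 of genes called higher, 40.2% of those of genes called lower, and 6 of the 17 windows found for the cTEC list.

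mTEC genes also gave 1 call in edgeR, Krt5, with mostly higher fitted levels in NICD than in cKO. Of 24 tested, 20 had a higher fitted level in NICD, beside 9936 of all 19140 genes tested. In the list 1 was called higher and none lower, and the median log2 fold change was 1.5, or 0.74 under limma-voom. Against the controls, the list median was 0.00748 for NICD and −1.23 for cKO. These medians share the same 3 control libraries, and the difference between them was not tested. Limma-voom and DESeq2 each called 3 of the 24 higher and none lower. Krt5, the basal keratin of mTECs (chr15:101707070-101712891, minus strand), was at 1002, 1692, 1852, 1111 and 928 CPM in NICD and 51.6, 109 and 52.6 CPM in cKO. The lowest NICD library was far above the highest cKO library, the log2 fold change was 4.24 ± 0.67, or 18.9-fold (edgeR adjusted p = 0.00309), and all 23 alternatives called it. Controls fell between, at 291, 493 and 311 CPM, with 1.86 for NICD over control (edgeR adjusted p = 0.145) and −2.38 for cKO over control (adjusted p = 1.0), so that neither step was called on its own. Tnfrsf11a, encoding RANK, which drives mTEC maturation, was at 13.6, 18.1, 30.4, 17.5 and 41.3 CPM in NICD and 0.122, 7.49 and 1.38 CPM in cKO without a call (log2 fold change 3.13 ± 1.05, edgeR adjusted p = 0.158). Genes of mature mTECs were near their floor: Aire, which drives expression of tissue-restricted antigens, reached 3.28 CPM in NICD replicate 1 and at most 0.0276 CPM in the other NICD libraries, and 0.0916 CPM in cKO.

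In the list of progenitor and pharyngeal pouch genes 21 were tested and Sox9 was the only call, with 15 higher and 6 lower fitted levels and a median of 0.89. Of 14 MHC class I and proteasome genes Psmb11 was the only call and 11 had a lower fitted level, with a median of −0.43 that became 0.02 under housekeeping scaling. Picked after their values were seen, the immunoproteasome subunit Psmb10 was at 157 to 258 CPM against 364 to 409.9 CPM (edgeR adjusted p = 0.0633) and Psmb9 at 26.9 to 110.05 CPM against 172 to 242 CPM (adjusted p = 0.215). Of 9 MHC class II genes none was called by edgeR or limma-voom and 1 was called higher by DESeq2, with 1 higher and 1 lower at an unadjusted p under 0.05 in edgeR, and the median of −0.29 became 0.16 under housekeeping scaling.

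**Figure D3:**
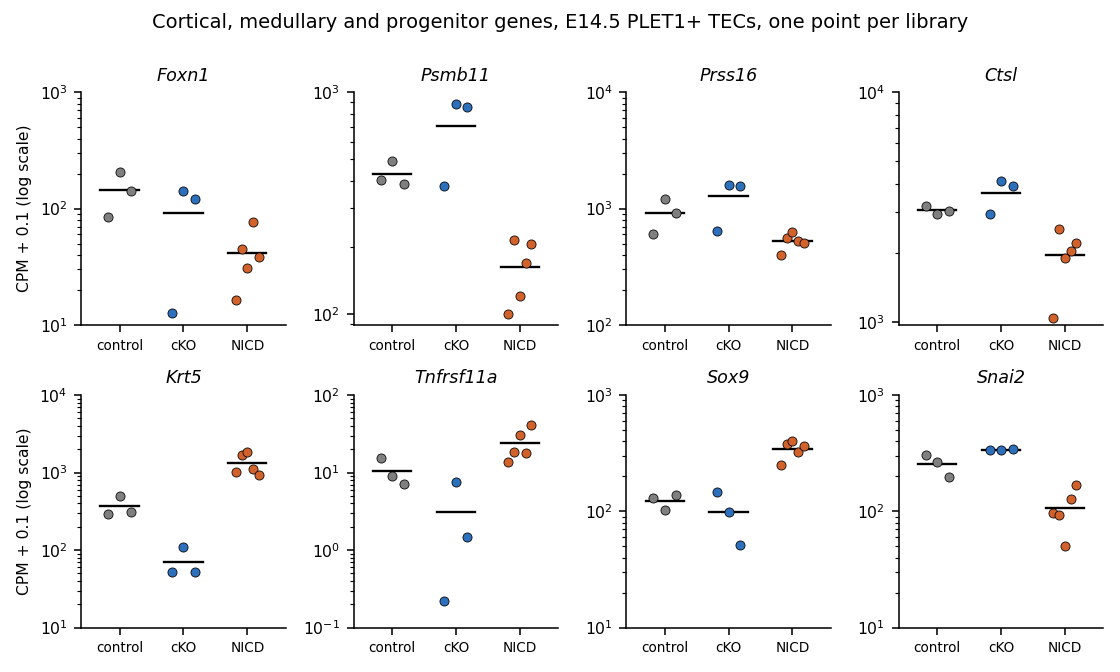
Normalised CPM plus 0.1, on a log axis, of 8 cortical, medullary and progenitor genes in control (grey, n = 3), cKO (blue, n = 3) and NICD (orange, n = 5) libraries of E14.5 PLET1+ TECs, with 1 point per library and a black line at the mean. Krt5 lies lowest in the cKO, between in the controls and highest in NICD, Psmb11 and Snai2 are lowest in NICD, and the cKO library with low Foxn1 is replicate 1.

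Signalling pathways other than Notch gave few calls. In the EGFR list (22 tested, median 0.90) Hsp90aa1, a chaperone that also serves receptor kinases, was higher and Errfi1, a feedback inhibitor of EGFR, was lower, at 56.6, 24.5, 27.4, 47.1 and 30.2 CPM in NICD and 73.3, 302 and 168 CPM in cKO (log2 fold change −2.31 ± 0.49, edgeR adjusted p = 0.0245). Egfr itself, picked after its values were seen, did not overlap, at 77.5, 186, 46.3, 123 and 61.9 CPM against 15.6, 37.8 and 35.7 CPM, and missed the threshold (log2 fold change 1.73 ± 0.44, edgeR adjusted p = 0.0599). Errfi1 was lost without NICD replicate 2, 3 or 5 (edgeR adjusted p = 0.0560, 0.0594 and 0.0515) or cKO replicate 2 or 3 (0.305 and 0.0747), with a log2 fold change of −1.44 without cKO replicate 2. Other settings lost Errfi1 too, among them the fit of only the 8 libraries compared (edgeR adjusted p = 0.0838). No FGF gene of 18 was called by edgeR, with 3 lower and none higher at an unadjusted p under 0.05, while limma-voom and DESeq2 each called 2 lower. The median of the FGF list, at −0.31, became 0.16 under housekeeping scaling and −1.20 under limma-voom. Dusp6, a phosphatase induced by FGF signalling, was at 35.8 to 98 CPM against 86.3 to 282 CPM (adjusted p = 0.0609 in edgeR, 0.0387 in limma-voom and 0.00329 in DESeq2). No WNT gene of 27 (median 0.41) and no NF-κB gene of 22 (median 0.42) was called by edgeR. At an unadjusted p under 0.05, 4 WNT genes were higher and 3 lower, and 2 NF-κB genes were higher and 2 lower. Of the WNT genes limma-voom called 3 lower and DESeq2 2 higher and 2 lower, and of the NF-κB genes limma-voom called 1 higher and DESeq2 2 higher and 1 lower. In the BMP and TGF-β list 2 of 29 were called higher: Tgfbr1, the type I TGF-β receptor, at 143, 175, 104, 126 and 145 CPM against 56.7, 49.7 and 72.6 CPM (log2 fold change 1.23 ± 0.21, edgeR adjusted p = 0.00629), and Smad4, the shared signal transducer, at 193, 255, 153, 74.4 and 167 CPM against 48.3, 41.7 and 41.5 CPM (log2 fold change 1.94 ± 0.43, edgeR adjusted p = 0.0284). Tgfbr1 was lost without cKO replicate 2 or 3 (edgeR adjusted p = 0.0519 and 0.0543). Smad4 was lost without NICD replicate 2 or 3 (0.0612 and 0.0508) or any cKO replicate (0.0810, 0.165 and 0.149). Other settings lost both, among them the fit of only the 8 libraries compared (edgeR adjusted p = 0.0890 for Tgfbr1 and 0.0824 for Smad4).

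Matrix and adhesion genes held 2 of the calls made in every alternative, Col4a1 and Dsp. Col4a1, a chain of the collagen IV network of basement membranes, was at 149, 235, 159, 209 and 107 CPM in NICD and 36.2, 33.7 and 36.2 CPM in cKO (log2 fold change 2.25 ± 0.32, edgeR adjusted p = 0.00139), and all 23 alternatives called it. Lamb1, a laminin chain, was at 239.6, 189, 296, 264 and 154 CPM against 106, 89.2 and 93 CPM (log2 fold change 1.25 ± 0.24, edgeR adjusted p = 0.0148). These were the 2 edgeR calls of 25 basement membrane and integrin genes, whose median was 0.75, but 0.00570 under limma-voom and 1.30 under housekeeping scaling. Of these 25 genes limma-voom called 2 higher and 2 lower and DESeq2 5 higher and 2 lower. NICD replicate 3, whose mesenchyme markers were as low as those of the cKO, held 159 CPM of Col4a1 and 296 CPM of Lamb1, inside the range of the other NICD libraries for Col4a1 and above it for Lamb1. This is 1 library, and what part mesenchymal RNA plays in the levels of these genes was not tested. Dsp, encoding desmoplakin, which ties desmosomes to keratin, was at 505, 686, 536, 670.4 and 616 CPM against 267, 236 and 226 CPM and was called in all 23 alternatives (log2 fold change 1.31 ± 0.17, edgeR adjusted p = 0.000416). The 25 junction genes tested had a median of 0.76, and Krt5 was the only call of 11 keratins (median 0.42). Lamb1 was lost without cKO replicate 2 or 3 (edgeR adjusted p = 0.0994 and 0.0832). Other settings lost Lamb1 too, among them the fit of only the 8 libraries compared (edgeR adjusted p = 0.0883).

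Growth and metabolism gave no calls in edgeR among 33 cell cycle, 20 glycolysis and hypoxia and 20 cholesterol synthesis genes, with medians of −0.34, −0.79 and 0.07, the first of which became 0.10 under housekeeping scaling. At an unadjusted p under 0.05, 2 cell cycle genes were higher and 8 lower, 9 glycolysis genes were lower and none higher, and 2 cholesterol genes were higher. Of the cell cycle genes limma-voom called 2 higher and 1 lower and DESeq2 2 higher and 3 lower, of the glycolysis genes limma-voom called 1 lower and DESeq2 3 lower, and of the cholesterol genes limma-voom called none and DESeq2 1 higher. Mki67, a marker of cycling cells, was at 203, 308, 208, 262 and 313 CPM in NICD and 121, 102 and 163 CPM in cKO (edgeR adjusted p = 0.0533), while Ccnb1, the mitotic cyclin, was lower in NICD at 211, 245, 316, 159 and 348 CPM against 507, 484 and 731 CPM (adjusted p = 0.0659). Ldha, which makes lactate, was at 776, 437, 589.7, 714 and 438 CPM in NICD, 561, 2088 and 2149 CPM in cKO and 662, 1972 and 1829 CPM in controls. Its replicate 1 in both the cKO and the control group fell inside the NICD range. With the mitochondrial share as a covariate the median of the glycolysis list became 0.20 and the value of Ldha 0.0385, a change of sign in both.

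**Figure D4:**
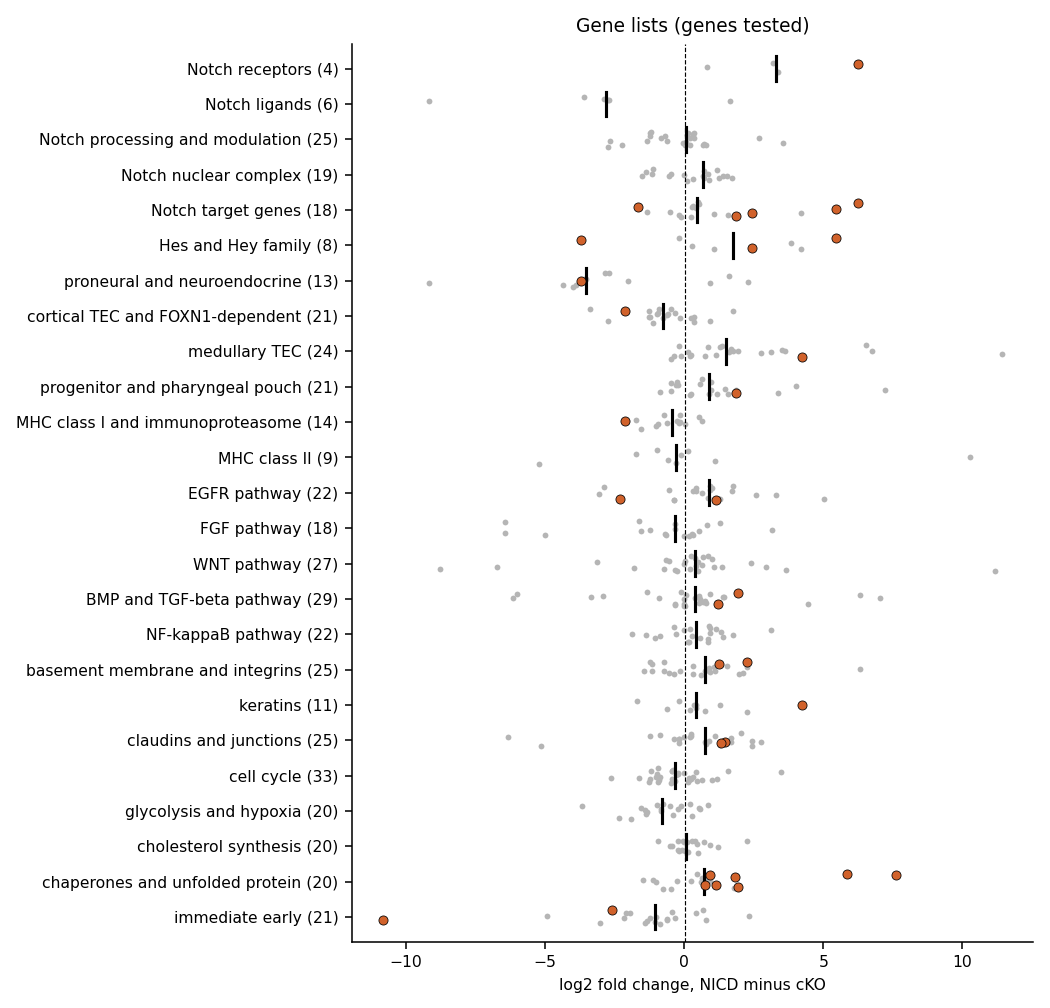
Log2 fold changes of NICD over cKO for the genes tested in each of 25 lists, with the number of genes tested in brackets. Grey points were not called, orange points were called, black bars mark the list medians and the dashed line the median of all genes tested (0.05), and the largest group of orange points lies in the chaperone list.

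Chaperones held more calls than any other list, 7 of 20, all higher in NICD (edgeR, median 0.71), beside 0.643% of all genes tested called higher. The lists were written with earlier results of these data known, so their ranking by calls is a description. DESeq2 called 11 of the 20 higher and 2 lower, beside 7.85% of all genes tested called in either direction. Hspa1a and Hspa1b, neighbouring genes for the stress-inducible chaperone HSP70, had the largest values. Hspa1a (chr17:34969190-34972156, minus strand) was at 521, 468, 693, 591 and 339.5 CPM in NICD, 8.3, 14.2 and 5.31 CPM in cKO and 6.44, 13.2 and 13.1 CPM in controls, a log2 fold change of 5.85 ± 0.51 over cKO (edgeR adjusted p = 4.58e-06). Hspa1b was at 478, 477, 888, 612 and 206 CPM against 3.57, 2.65 and 1.99 CPM, with a log2 fold change of 7.63 ± 0.88 (edgeR adjusted p = 0.000140). The genes are near copies, and reads shared between them make the split uncertain. Control levels were like those of the cKO. NICD over control was 5.56 for Hspa1a and 7.21 for Hspa1b, and cKO over control −0.30 and −0.42. Hsph1, an HSP70 partner, was at 223, 216, 312, 269.5 and 163 CPM against 50.3, 71 and 65.1 CPM (log2 fold change 1.93 ± 0.27, edgeR adjusted p = 0.00139). Dnajb1, an HSP40 cochaperone, had a log2 fold change of 1.85 and the HSP90 genes Hsp90aa1 (cytosol) and Hsp90b1 (endoplasmic reticulum) of 1.13 and 0.92 (edgeR adjusted p = 0.0282, 0.0136 and 0.00837). Hspa8, the constitutive HSP70, passed narrowly (log2 fold change 0.76 ± 0.18, edgeR adjusted p = 0.0467). Of the other 13 genes, 5 were higher and 3 lower in NICD at an unadjusted p under 0.05.

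Several of these calls rested on individual libraries or on the settings of the fit. Dnajb1 was lost without NICD replicate 3 or 4 (edgeR adjusted p = 0.0632 and 0.0539) or cKO replicate 1 or 3 (0.0967 and 0.167), and its log2 fold change was 2.45 without cKO replicate 2. Lost were also Hsp90aa1 without cKO replicate 2 or 3 (0.0917 and 0.104) and Hsp90b1 without cKO replicate 3 (0.0728). Hspa8 was lost without NICD replicate 1, 3, 4 or 5 (0.0553, 0.103, 0.104 and 0.0873) or any cKO replicate (0.121, 0.0774 and 0.155). Other settings lost Hspa8 too, among them RLE factors (edgeR adjusted p = 0.0612), housekeeping scaling (0.0521), no batch terms (0.151) and thinning (0.0747). Hsp90b1 was lost with no batch terms (0.0753). The fit of only the 8 libraries compared lost Dnajb1, Hsp90aa1, Hsp90b1 and Hspa8 (edgeR adjusted p = 0.108, 0.0838, 0.0837 and 0.211). Hspa1b was missed by limma-voom (limma-voom adjusted p = 0.0503).

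Heat shock factor binds inverted repeats of the form GAANNTTC, searched here after the values were seen, and the promoter of Hspa1a is shown because it holds a match and its gene was called in all 23 alternatives (chr17:34972147-34972406, GRCm38.p6, minus strand, 250 bases before to 10 after the RefSeq start, the match in capitals).
Hspa1a: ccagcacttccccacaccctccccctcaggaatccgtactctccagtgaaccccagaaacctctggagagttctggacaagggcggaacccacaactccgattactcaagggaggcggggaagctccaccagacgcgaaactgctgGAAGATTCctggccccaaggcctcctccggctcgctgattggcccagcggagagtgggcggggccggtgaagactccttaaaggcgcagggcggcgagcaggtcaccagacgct
The match lay at positions −104 to −97. The windows of Hspa1a and Hspa1b shared 296 of 300 bases, and the motif was present in 9 of the 21 windows found for the chaperone list, 7.86% of all windows, 5.89% of the windows of genes tested, 8.14% of those of genes called higher and 14 of the 127 of genes called lower.

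Immediate early genes, which respond within minutes to growth factors, mostly had lower fitted levels in NICD. Of 21 tested, 2 were called lower and none higher by edgeR, 17 had a lower fitted level and the median was −1.04. Limma-voom called 1 higher and 5 lower and DESeq2 1 higher and 4 lower. Fosb, an AP-1 subunit, was at 29.9, 7.14, 22.9, 23.1 and 6.95 CPM in NICD, 104, 124 and 96.4 CPM in cKO and 123, 158 and 104 CPM in controls (log2 fold change −2.58 ± 0.40, edgeR adjusted p = 0.00253). Klf2, a Krüppel-like factor, had no count in any NICD library and 7.42, 4.42 and 3.37 CPM in the cKO, a mean at least 120.5-fold lower in NICD (edgeR adjusted p = 0.00171). With the mitochondrial share as a covariate the median of the list was 0.21, the opposite sign.

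Of the protein-coding genes called without overlap of libraries, 83 higher and 96 lower, those with the smallest p give the rest of the picture. Among the 15 named higher, Alad, an enzyme of haem synthesis, was at 427, 413, 498, 663 and 476 CPM in NICD and 128, 116 and 128 CPM in cKO (log2 fold change 2.0 ± 0.21, edgeR adjusted p = 4.70e-05). Gstm2, a glutathione transferase, was at 578, 628, 741, 522 and 643 CPM against 192, 138 and 135 CPM (log2 fold change 2.01 ± 0.31). Shisa2, a modulator of WNT and FGF receptors, was at 212, 306, 232, 358 and 317 CPM against 79.4, 86.3 and 103 CPM (log2 fold change 1.67 ± 0.25), with controls between, at 171, 163 and 122 CPM. Jarid2, a partner of Polycomb repressive complex 2, was at 126, 89.4, 124, 93.5 and 165 CPM against 12.7, 33.5 and 36.1 CPM and also had controls between, at 54.7, 51.5 and 58.5 CPM (log2 fold change 2.14 ± 0.35). Anp32a, a histone-binding protein, Psme4, a proteasome activator, and Rtn4, a reticulon of the endoplasmic reticulum, had log2 fold changes of 1.93, 1.80 and 1.78. The calls of Psme4 and Rtn4 were lost without cKO replicate 3 (edgeR adjusted p = 0.0599 and 0.0624).

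Among the 15 named lower, several were all but absent from NICD. Lmo3, a LIM-only transcriptional cofactor (chr6:138362918-138581968, minus strand), had 1 count in the 5 NICD libraries together and 1586, 1832 and 1701 counts in the cKO, or 48.4, 45 and 40.3 CPM, with 58, 12.8 and 29.6 CPM in controls. The ratio of mean CPM was 15964 in favour of the cKO, with a 95% counting interval of 2865 to 630542 (edgeR adjusted p = 2.83e-07). Ispd, which serves the glycosylation of dystroglycan, also had 1 count in NICD against 16.1, 23.3 and 15.3 CPM in the cKO, a ratio of 6516 (interval 1169 to 257365). Ankmy1, Tctex1d1 and Hspa12a had none, which made their means at least 240.2-, 100.4- and 192-fold lower. The cKO values of Hspa12a were 20.5, 1.97 and 1.68 CPM, so that replicate 1 set most of its mean. Its fitted log2 fold change, which is no bound, was −11.55, and −9.37 without cKO replicate 1 and −12.24 without cKO replicate 3. That of Tctex1d1 was −10.70, and −10.01 without cKO replicate 3. All of these fits kept the calls. Itgb2, the leukocyte integrin β2 chain, had 3 counts, all in replicate 2, against 19.4, 13.7 and 12 CPM, a ratio of 1795 (interval 614 to 8706). These bounds and intervals cover counting error only. Without the library that held the NICD counts, the fitted log2 fold change went from −12.98 to −13.96 for Lmo3 (NICD replicate 5), from −11.69 to −12.69 for Ispd (replicate 1) and from −10.41 to −12.46 for Itgb2 (replicate 2), all still called. The mitochondrial gene mt-Nd3 was at 0.119, 0.168, 0.138, 0.191 and 0.0504 CPM in NICD against 14.3, 40.9 and 50.6 CPM (log2 fold change −8.0 ± 0.66, edgeR adjusted p = 1.98e-06), whereas 10 of the 13 mitochondrial protein-coding genes had a higher fitted level in NICD. Others were well expressed in both groups. Lamp2, a lysosomal membrane protein, was at 301, 323, 344, 444 and 558 CPM against 1047, 1161 and 1516 CPM (log2 fold change −1.64 ± 0.22, edgeR adjusted p = 0.000626), and Dctn1, the large dynactin subunit, at 49.5, 47.2, 75, 64.9 and 83.2 CPM against 112, 267 and 309 CPM (log2 fold change −1.82 ± 0.27). Hint1, a nucleotide hydrolase, Plgrkt, a plasminogen receptor, and Dusp14, a MAP kinase phosphatase, had log2 fold changes of −1.98, −1.54 and −2.64.

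**Figure D5:**
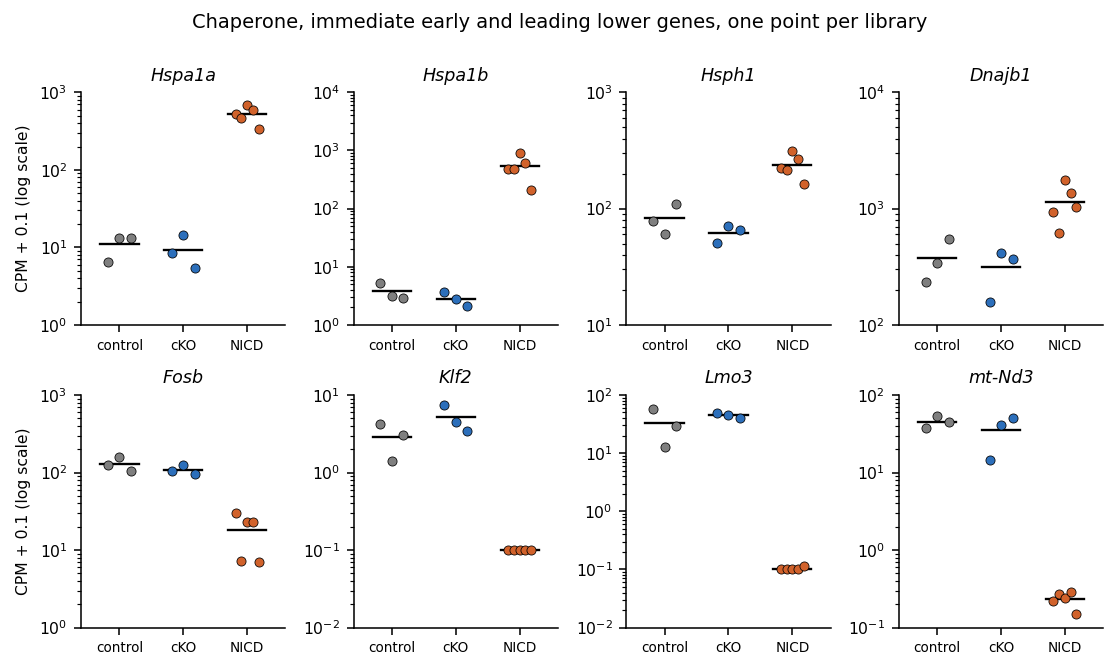
Normalised CPM plus 0.1, on a log axis, of 4 chaperone genes, 2 immediate early genes and 2 of the leading lower genes in control (grey, n = 3), cKO (blue, n = 3) and NICD (orange, n = 5) libraries of E14.5 PLET1+ TECs, with 1 point per library and a black line at the mean. In all 8 panels the control points overlap those of the cKO or lie close to them, and the NICD points stand apart.

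Set beside the E12.5 PLET1+ controls, with no test since age and batch differ together, the levels did not order the groups in the same way for every gene. Hes1 was at 97.8, 70.4 and 232 CPM at E12.5, overlapping the NICD range and above both E14.5 PLET1+ groups of the Rbpj cross. Psmb11, at 133, 87.8 and 72.9 CPM, and Hes6, at 203, 239 and 229 CPM, were also lower at E12.5 than in E14.5 controls, as they were in NICD. Krt5, at 99, 43.3 and 44.3 CPM, instead overlapped the E14.5 cKO. Hspa1a, at 24.5, 37.9 and 16.1 CPM, stayed far below NICD.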

How the data were processed

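RNA was measured by Smart-seq2 in 23 libraries of 100 cells, with paired reads of 75 bp. The authors trimmed reads with Trimmomatic 0.32, aligned them with STAR 2.5.1a to GRCm38 and counted fragments per gene over GENCODE vM12 exons with featureCounts (1.5.0-p3 in the file header, 1.5.1 in the submitters' processing notes), without strand, and the deposited values are raw counts for 50123 genes. Symbols were found for 98.6% of identifiers in GENCODE vM21. The authors' comparisons were not used.

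Counts were fitted in edgeR 4.0.16 (R 4.3.3) by quasi-likelihood over all 23 libraries, with 7 group means, 1 batch term within E12.5 and 1 within the E14.5 Rbpj cross, TMM factors and filterByExpr, which kept 19140 genes. Two-sided p-values were adjusted by Benjamini-Hochberg over these genes and called at 0.05. Errors after ± are SD for levels and SE for log2 fold changes, the latter taken as the log2 fold change over the square root of F. Levels are CPM on TMM-scaled library sizes, and lower bounds use a floor of 3 counts per library, which covers counting error only. By the study's methods the NICD libraries came from 5 embryos of 1 litter and those of the E14.5 Rbpj cross from 2 litters. The p-values measure the spread between libraries within the 7 groups of all 23 libraries, after the batch terms. For NICD they hold no spread between litters, and in the E14.5 Rbpj cross the batch term takes up the difference between batches 3 and 4. Total counts, genes detected and the mitochondrial and 10 most abundant genes' shares were compared by exact permutation over 56 splits.

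Named were members of the Notch, Hes and Hey, cTEC, mTEC and progenitor lists, called members or those of smallest p of other lists, the 15 genes of smallest p each way among called protein-coding genes without overlap, and Rbpj, Notch1, Hprt and Ywhaz. Some genes that this rule names are not reported here. Members, lists and this rule were chosen with earlier results of these data known. No set test was run. Alternatives were DESeq2 1.42.0, limma-voom (limma 3.58.1, the authors' test), RLE factors, housekeeping scaling, no or a stricter filter, other batch terms, fewer libraries, thinning, a replicate block and omission of each library. Promoter windows came from RefSeq (GRCm38.p6). Counts were simulated in which 200 genes differed by 3 or 1.5 on the log2 scale between NICD and all other groups. For NICD against cKO, edgeR recovered 26% and 8% with 1 and 0 false calls, over 18212 and 18259 genes. Limma-voom recovered 20.5% and 8.5% with 7 and 9 false calls, and DESeq2 50.5% and 26% with 239 and 227. No batch, litter or site difference was simulated, so these false calls do not cover the confounding of the real comparison.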

Additional observations from a re-analysis of the deposited data

Results flagged for a closer look

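A single NICD library lay far from the other 4, by Dixon's test at the 95% level, for 8 of 85 values examined. The rate of about 1 in 20 that chance flags does not apply to genes at 0 in the other 4 libraries, where any count is flagged. The 8 are therefore not read as an excess. In replicate 1, Notch1 was at 87 CPM with the next library at 42.7, Notch2 at 239.8 CPM below 749.8, and Aire at 3.28 CPM above 0.0276. In replicate 5, Dusp14 was at 47.9 CPM above 21.3. Lmo3 in replicate 5 (0.0126 CPM), Ispd in replicate 1 (0.0148 CPM) and Itgb2 in replicate 2 (0.0458 CPM) were the only NICD libraries with any count of these genes, so that their flags were fixed in advance. The mitochondrial share was 12.8% in replicate 2, against 10.01% in the next library.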

How the results depend on the processing

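Of the 265 genes called, the number moved by more than 1.5 times under DESeq2 (1502, with 653 higher and 849 lower), limma-voom (1044, with 289 and 755), housekeeping scaling (654, with 498 and 156), no filter (776, with 195 and 581), a fit of only the 8 libraries compared (37, with 26 and 11) or the 11 E14.5 PLET1+ libraries (83, with 56 and 27), the mitochondrial share as covariate (121, with 51 and 70) and replicate 1 against 2 and 3 as the batch (476, with 228 and 248). The last 2, and a fit of protein-coding nuclear genes, were chosen after seeing the data. DESeq2 shared 264 and limma-voom 249 of the 265 genes. Leaving out each library in turn gave 67 to 315 calls. The replicate number as a block gave 150 calls (51 and 99), 93 of them shared. These numbers do not pair the libraries, which come from different litters: deviations of same-numbered libraries correlated at a mean of −0.15, against 0.12 for other pairs. The causes were not tested, apart from the fewer libraries or genes that some alternatives hold by construction.

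Of 49 called genes named, all kept their direction in every alternative run, and DESeq2 called all 49. Both were close to fixed in advance, since these genes were picked as called in the same libraries and DESeq2 shared 264 of the 265 calls. The fewest stayed called in the fit of 8 libraries (19), that of 11 (31), without cKO replicate 3 (32), with the mitochondrial share (34), without cKO replicate 2 (36) and with the replicate block (38). Genes not called changed sign as follows. With the mitochondrial share as covariate, Notch2 was −0.43, Foxn1 0.40, Ldha 0.0385 and Hprt −0.76. Hprt was also negative under DESeq2 (−0.0449), RLE factors (−0.0449), no batch terms (−0.0229), the batch 3 level (−0.16), the 8 libraries (−0.0116) and thinning (−0.0445), and ranged from −0.26 to 0.60 over the omitted libraries. Ywhaz was 0.00313 under housekeeping scaling. Of 575 list medians under alternatives, 89 moved by more than 1 SD between libraries, and the proneural list reached 1.32 with the mitochondrial share. The smallest of the 8 libraries held 34875277 counts and the biological coefficient of variation of the fit was 1.16.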

Other observations

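Interferon-inducible GTPases, which defend cells against intracellular pathogens, were picked out after their values were seen. Iigp1 was at 74.2, 132, 167, 289.5 and 31.3 CPM in NICD and 1437, 880.5 and 1324 CPM in cKO, with 899, 566 and 927 CPM in controls (log2 fold change −3.13 ± 0.52, edgeR adjusted p = 0.00505). Irgm1 was at 27.3, 7.98, 4.47, 30.2 and 24.9 CPM against 251, 427 and 386 CPM (log2 fold change −4.22 ± 0.87, edgeR adjusted p = 0.0205). Irgm2 and Gbp7 followed, with log2 fold changes of −7.02 and −3.26 (edgeR adjusted p = 0.0223 and 0.0263). All 4 did not overlap between the groups, and at E12.5 the controls held 57.4 to 74.2 CPM of Iigp1 and 0.0371 to 40.7 CPM of Irgm1. Without cKO replicate 2 or 3, Irgm1 (edgeR adjusted p = 0.0866 and 0.0788) and Irgm2 (0.0772 and 0.0858) were not called, nor was Gbp7 without NICD replicate 1 or 2 (0.0516 and 0.0586) or cKO replicate 1, 2 or 3 (0.101, 0.0518 and 0.0753). The log2 fold change of Gbp7 was −2.57 without cKO replicate 1 and that of Irgm2 −7.92 without NICD replicate 1.

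Processed pseudogenes made up 7.31% of the genes tested, 26 of the 123 called higher in NICD (21.1%) and 1 of the 142 called lower. Their share of all counts was 0.343% to 0.382% in NICD and 0.234% to 0.291% in cKO. Rps3a3 was at 154, 239, 239, 186 and 202 CPM in NICD and 2.05, 0.885 and 0.996 CPM in cKO, and Rps13-ps1 at 70.4, 79.4, 91.3, 87.9 and 85.9 CPM and 0.549, 0.418 and 0.308 CPM (log2 fold changes 7.30 and 7.60, edgeR adjusted p = 2.09e-07 and 1.98e-06), both chosen after their values were seen. These genes share long stretches with the expressed ribosomal protein genes, so that their counts depend on how reads were placed. Among mitochondrial RNAs, the 12S ribosomal RNA mt-Rnr1 was higher in NICD (2257, 3828, 2601, 2963 and 3651 CPM against 849, 731 and 777 CPM, log2 fold change 1.94 ± 0.30, edgeR adjusted p = 0.00253), while mt-Nd3 was lower. The cause of these differences was not tested.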
